A study of Homo sapiens with 12 samples.

Results

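ATF4 is the transcription factor through which cells answer a shortage of amino acids, and the genes examined here are ATF4 itself, its partner factors and the genes it is known to induce for making, importing and charging amino acids. A list of 39 symbols was read from the deposited table of 38272 loci, taking for each symbol the locus with the highest mean FPKM (fragments scaled to the length of the locus and the size of the library) where several loci carried it. A locus was found for 38 of the 39, and DDIT3 is not analysed here. All 38 passed the filter of 1 FPKM or more in 3 or more of the 12 libraries, as did 32866 loci in all. For 10 members further loci carried the symbol, with means of 0.732 to 11.4 FPKM, and adding them in changed no count of calls.

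The libraries came from K562, an established chronic myeloid leukaemia line, in 4 groups of 3 labelled biological replicates. TNFSG cells were transfected with Si623/Gap01, an siRNA and a GapmeR (an antisense oligonucleotide that recruits RNase H) against a long non-coding RNA, and then kept for 6 hours with 20 ng/mL of tumour necrosis factor alpha (TNF). TNF cells had the mock transfection (SiCt+GapCt) and the same TNF treatment, SG cells had Si623/Gap01 without TNF, and control cells had the mock transfection alone. All cells were grown in RPMI medium with serum, so no group was deprived of amino acids by the stated protocol, and all had been transfected.

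In the integrated stress response, kinases that sense missing amino acids, misfolded protein, haem shortage or double-stranded RNA phosphorylate the translation factor eIF2. Bulk protein synthesis then drops while the ATF4 mRNA is translated more efficiently, so ATF4 protein can change without a change in its mRNA. ATF4 binds, together with C/EBP family proteins, a composite site called the amino acid response element in or near genes for asparagine and serine synthesis, mitochondrial folate enzymes, amino acid transporters and cytosolic aminoacyl-tRNA synthetases. K562 cells belong to the erythroid branch, where this response is known as a link between haem supply and protein synthesis.

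Promoters from 250 bases before to 50 bases after the RefSeq start (GRCh38.p14) were at hand for 31 members. The core of the amino acid response element, TGATGNAA, was searched on both strands, and 10 of the 31 promoters (32.3%) held it, against 3.62% of 35116 promoters of the same length in the RefSeq table. Of these 10, 6 belong to aminoacyl-tRNA synthetases, and the windows below are shown because they hold the letters that those genes share with ASNS and the transporters. Each is written in the direction of its gene, and capitals mark the core or its reverse complement.
ASNS (chr7:97872461-97872484, minus strand): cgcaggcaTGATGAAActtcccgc
CHAC1 (chr15:40953254-40953277, plus strand): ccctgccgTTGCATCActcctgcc
SLC3A2 (chr11:62881728-62881748, plus strand): aggactccTTACATCAgctcc
SLC7A1 (chr13:29595666-29595689, minus strand): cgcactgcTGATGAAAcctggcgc
AARS (chr16:70289678-70289701, minus strand): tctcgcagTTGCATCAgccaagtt
CARS (chr11:3057410-3057433, minus strand): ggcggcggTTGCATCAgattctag
IARS (chr9:92293695-92293718, minus strand): tcagcgcgTTGCATCAcctccgtg
MARS (chr12:57488056-57488079, plus strand): ggttccggTTGCATCAgcgaggga
NARS (chr18:57621807-57621830, minus strand): acgctctcTGATGCAAcgccggaa
TARS (chr5:33440959-33440982, plus strand): cctttcgaTTGCATCAgctggtcc
In 5 synthetases, CARS, IARS, MARS, NARS and TARS, the first base of the core lay between 13 bases before and 15 bases after the start, and in AARS it lay 187 bases before it. In ASNS it lay 68 bases before the start, in CHAC1 209 before, and in SLC7A1 and SLC3A2 it lay 8 and 38 bases after it. A match is a description of the letters and says nothing of whether ATF4 was bound in these cells. The members were listed for their known tie to ATF4, so their higher share describes the list and is not a test.

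For comparison, the stretch from 250 bases before to 10 after the start is shown for SLC38A2 and SLC1A5, the 2 genes called in the most comparisons, neither of which held the core. Capitals mark the transcribed bases.
SLC38A2 (chr12:46372764-46373023, minus strand): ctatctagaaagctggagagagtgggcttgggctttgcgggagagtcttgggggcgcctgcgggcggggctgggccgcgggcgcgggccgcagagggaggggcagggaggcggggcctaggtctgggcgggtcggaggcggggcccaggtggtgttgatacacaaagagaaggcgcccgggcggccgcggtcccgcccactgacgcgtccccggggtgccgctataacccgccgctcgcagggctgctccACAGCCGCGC
SLC1A5 (chr19:46788585-46788844, minus strand): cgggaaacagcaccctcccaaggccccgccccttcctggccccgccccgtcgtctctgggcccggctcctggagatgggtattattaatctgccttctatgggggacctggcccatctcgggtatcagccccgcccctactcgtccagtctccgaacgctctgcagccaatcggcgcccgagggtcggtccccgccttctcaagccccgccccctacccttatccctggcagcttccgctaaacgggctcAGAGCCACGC
The promoters of MTHFD2 and XPOT did not hold the core either. An E-box (CACGTG) was found in the promoters of ATF4, SLC7A5 and IARS, 3 of 31 (9.7%) against 7.26% of all promoters, where the E-box of IARS did not overlap its core. The NF-kB consensus, searched on both strands, was found in that of CBS alone, 1 of 31 (3.2%) against 11.3% of all.

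Most members were steadily and strongly expressed, and few moved with either treatment. TNF, averaged over both transfections (6 libraries with TNF against 6 without), raised the glutamine and neutral amino acid transporter SLC38A2 and the mitochondrial folate enzyme MTHFD2. It lowered the glutamine exchanger SLC1A5 and the tRNA export receptor XPOT. The lncRNA-directed transfection, averaged with and without TNF, lowered MTHFD2 and no other member. With each library left out in turn, the averaged TNF calls of SLC38A2 and SLC1A5 held in all 12 fits. The TNF call of MTHFD2 was lost in 10 of the 12, that of XPOT in 9 and the SG call of MTHFD2 in 8. ATF4 mRNA, ASNS and the 12 synthetases with usable values did not pass the test in any comparison.

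Tests were made with limma on log2(FPKM + 1), 2-sided, with p values adjusted (Benjamini-Hochberg) over all 32866 loci, and a locus was called below 0.05. With TNF averaged over both transfections, 2 members rose and 2 fell of 38 (10.5%), against 4.38% of all loci called, 2.84% higher and 1.55% lower. Among all 9824 loci with a mean of at least 10 FPKM the share called was 8.11%, so the members' share lay near that of loci of like level. The members' median log2 change was -0.04, against -0.03 for all loci. In TNF against control 1 member rose and 1 fell, against 1.45% of all loci called (1.18% higher, 0.277% lower). In TNFSG against SG again 1 rose and 1 fell, against 1.64% of all loci (1.37% higher, 0.277% lower). The members' share was 5.26% in each of the 2 comparisons. Among loci with a mean of at least 10 FPKM it was 2.90% in TNF against control and 3.00% in TNFSG against SG. These 2 comparisons share no library, but both took their spread from the same fit to all 12 libraries, so they are not independent.

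With the SG effect averaged, 1 member of 38 (2.63%) fell, against 1.11% of all loci called, 0.593% higher and 0.517% lower. Among loci with a mean of at least 10 FPKM the share called was 2.68%, so the members' share lay near it. No member was called in SG against control, where 0.17% of all loci were, nor in TNFSG against TNF, where 0.128% were. At an unadjusted p under 0.05 there were 4 members in SG against control and 3 in TNFSG against TNF. The members' median log2 change was -0.02 in SG against control and -0.01 in TNFSG against TNF, against 0.08 for all loci in each. For loci with a mean of at least 10 FPKM the median was 0.04 in each. In the interaction, which asks whether the TNF change differed between transfections, no member was called and none was below an unadjusted p of 0.05, against 0.00913% of all loci called. The SG splits of all loci depend on scaling: 195 loci were higher and 170 lower with the SG effect averaged, against 109 and 376 after median-ratio scaling and 86 and 351 after quantile normalization. In SG against control the split was 18 higher and 38 lower, against 17 and 66 after median-ratio scaling, and in TNFSG against TNF it was 19 and 23, against 19 and 59.

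**Figure D1:**
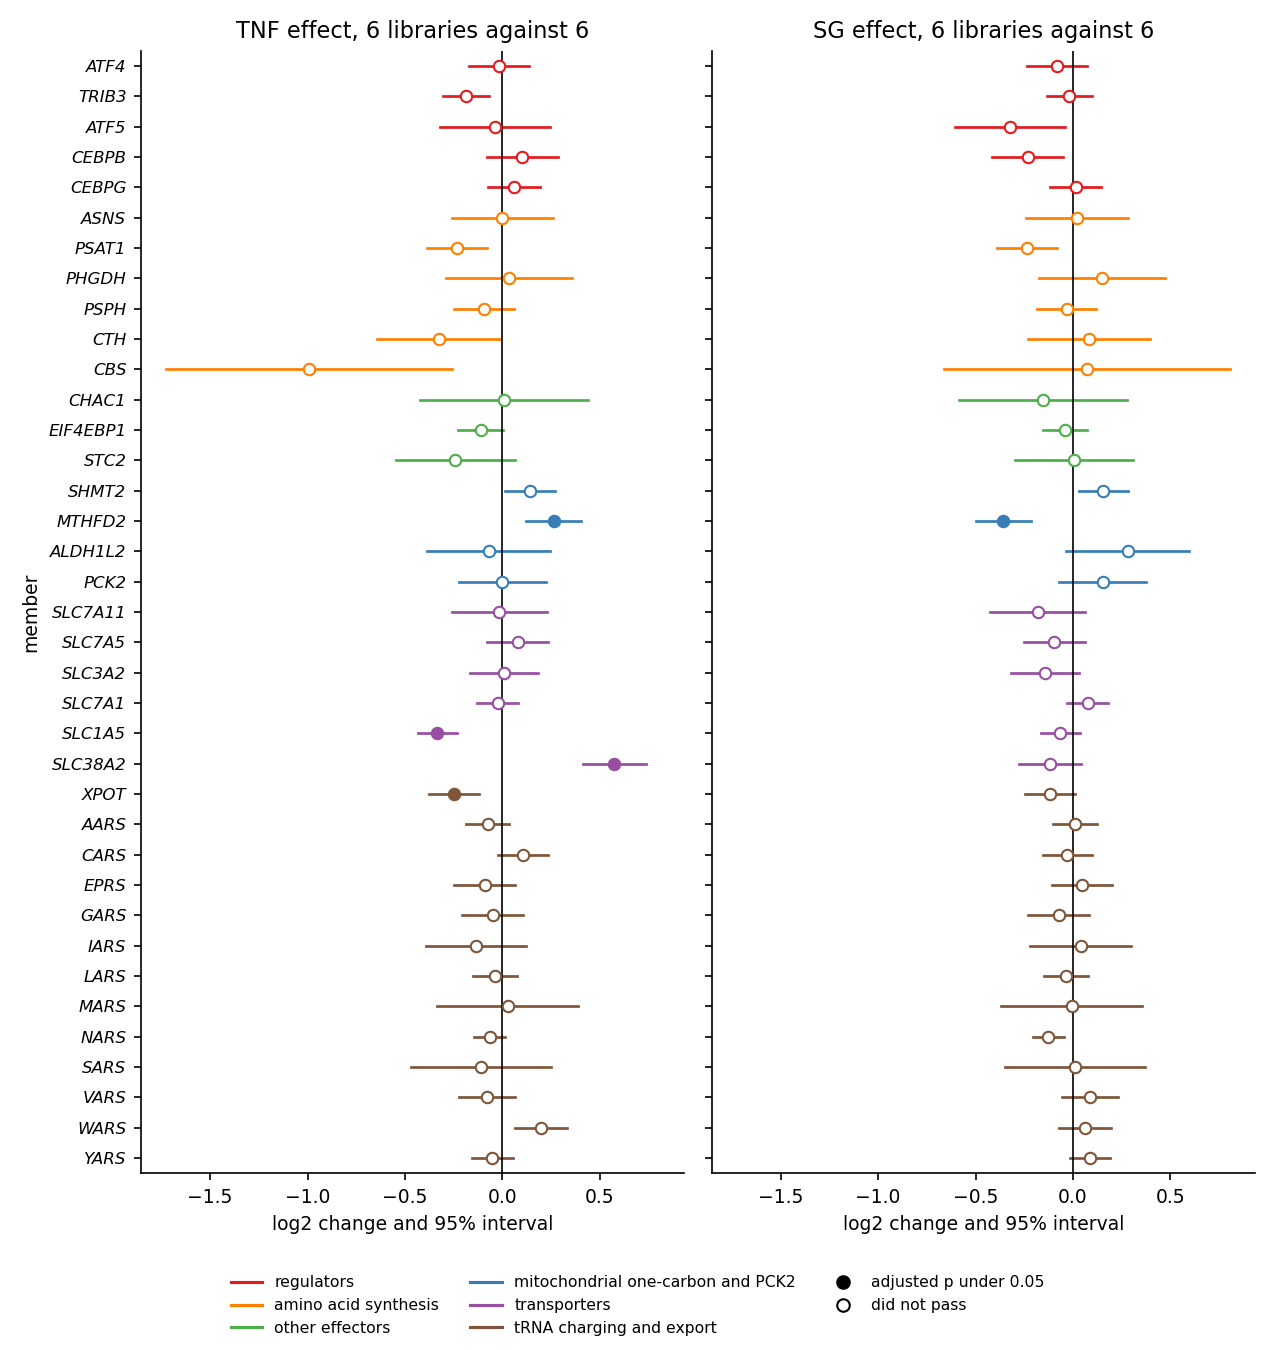
Log2 change with its 95% interval for 37 members (TARS left out, see its values in the text), for TNF averaged over both transfections (left, 6 libraries with TNF against 6 without) and SG averaged with and without TNF (right), coloured by role, filled where adjusted p was under 0.05. SLC38A2 at 0.57 and SLC1A5 at -0.33 stand apart in the TNF panel, and MTHFD2 at -0.36 in the SG panel.

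The intervals show what the 12 libraries could resolve. Leaving out TARS, the 95% interval of the TNF change lay within 1.5-fold in either direction for 34 of 37 members, the exceptions being SLC38A2, CTH and CBS. For the SG change it did so for 33 of 37, the exceptions being CHAC1, ATF5, ALDH1L2 and CBS. Standard errors of the averaged log2 changes lay between 0.04 and 0.33, with a median of 0.07.

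The regulators did not change by the test. ATF4 mRNA was 81.0, 98.0 and 96.3 FPKM in TNFSG, 96.4, 100.4 and 103 in TNF, 83.4, 99.7 and 104 in SG and 95.3, 97.0 and 102 in control, and the groups overlapped. Its log2 change was -0.02 with TNF (95% interval -0.17 to 0.14, adjusted p = 0.95) and -0.08 with SG (interval -0.24 to 0.07, adjusted p = 0.633).

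TRIB3, a pseudokinase that ATF4 induces and that feeds back on it, was 30.5, 35.1 and 36.2 FPKM in TNFSG, 35.1, 32.1 and 35.3 in TNF, 37.6, 37.6 and 40.1 in SG and 39.4, 39.3 and 38.8 in control. All 6 libraries with TNF lay below all 6 without, yet the log2 change of -0.19 (interval -0.30 to -0.07) gave an adjusted p of 0.0906 and did not pass. ATF5, a related factor that is translated like ATF4, was 13.5, 17.9 and 15.9 FPKM in TNFSG, 17.8, 25.3 and 19.8 in TNF, 15.1, 18.4 and 17.3 in SG and 16.0, 24.2 and 22.0 in control. The SG libraries tended low but overlapped the mock ones, with a log2 change of -0.32 and an adjusted p of 0.276. In every group replicate 1 was lowest and replicate 2 highest. At each replicate number SG lay below control and TNFSG below TNF. With the replicate number added to the limma fit, the adjusted p was 0.0323.

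The C/EBP partners of ATF4 were present in every library. CEBPB was 18.2, 21.8 and 23.6 FPKM in TNFSG, 28.9, 24.9 and 23.3 in TNF, 21.0, 20.3 and 19.0 in SG and 25.3, 21.0 and 23.4 in control. Its 3 SG libraries lay below its 3 control libraries, and the averaged SG change was -0.23 (adjusted p = 0.231). CEBPG was 20.1, 23.7 and 23.1 FPKM in TNFSG, 22.0, 23.2 and 22.7 in TNF, 20.0, 23.4 and 22.4 in SG and 20.4, 22.1 and 21.0 in control, with little spread and overlapping groups.

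**Figure D2:**
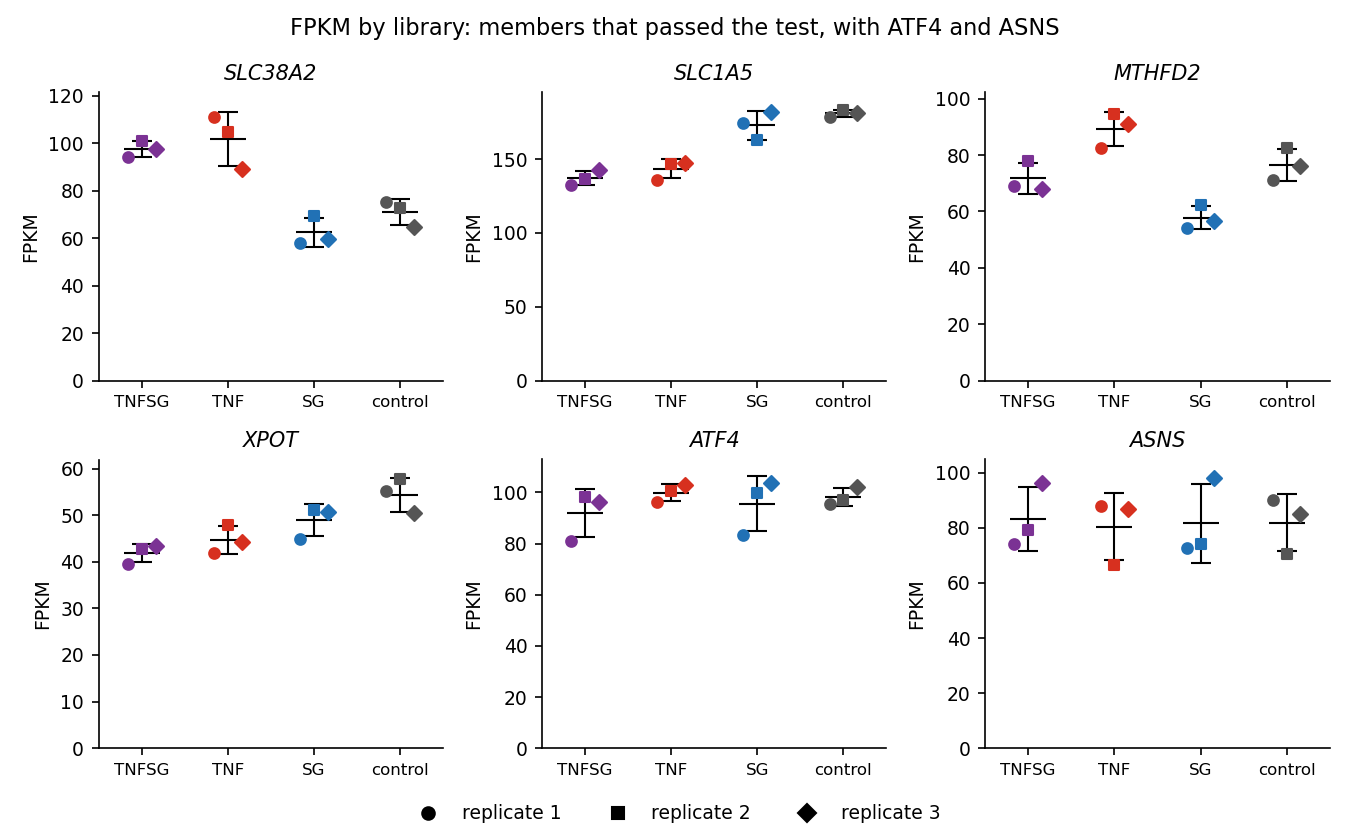
FPKM in each library (points, shaped by replicate) with the group mean and SD (bars, n = 3) for the 4 members that passed a test and for ATF4 and ASNS. SLC38A2 lies at 89.1 FPKM or above in the libraries with TNF and at 75.2 or below in those without, SLC1A5 is separated the other way round, and ATF4 and ASNS overlap across groups.

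Among the transporters, SLC38A2 (SNAT2), a sodium-coupled importer of glutamine and other small neutral amino acids, carried the largest called change of any member. It was 94.1, 101 and 97.5 FPKM in TNFSG and 58.0, 69.5 and 59.8 in SG. In the mock transfection it was 111, 105 and 89.1 FPKM in TNF and 75.2, 72.8 and 64.6 in control. The groups with and without TNF did not overlap in either transfection. The log2 change was 0.64 ± 0.10 (SE) in TNFSG against SG (adjusted p = 0.0125) and 0.51 ± 0.10 in TNF against control (adjusted p = 0.0436). Averaged, it was 0.57 ± 0.07, a 1.49-fold rise (adjusted p = 0.00155). The known amino acid response element of SLC38A2 lies in its first intron, outside the promoter stretch printed above.

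SLC1A5 (ASCT2), which exchanges glutamine for other neutral amino acids, moved the other way. It was 132, 136 and 142 FPKM in TNFSG and 174, 163 and 182 in SG, and 136, 147 and 148 in TNF and 179, 183 and 181 in control. Every library with TNF lay below every library without it. The log2 change was -0.33 ± 0.06 in TNFSG against SG (adjusted p = 0.0305), -0.34 ± 0.06 in TNF against control (adjusted p = 0.0313) and -0.33 ± 0.04 averaged (adjusted p = 0.00219), a fall of the mean FPKM by 20.8%.

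The averaged calls of SLC38A2 and SLC1A5 held with each library left out in turn, with adjusted p values up to 0.00666 and 0.009. The calls within 1 transfection were less stable. SLC38A2 in TNF against control was lost without any 1 library other than TNF replicate 3 or SG replicate 2 (adjusted p up to 0.16), and in TNFSG against SG without SG replicate 1 or 3 or TNFSG replicate 2 or 3 (up to 0.0628). SLC1A5 in TNF against control was lost without any 1 of the control or TNF libraries, SG replicate 1 or TNFSG replicate 2 (up to 0.123). In TNFSG against SG it was lost without any TNFSG library, SG replicate 1 or 3, or replicate 2 or 3 of control or TNF (up to 0.13).

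The other 4 transporters did not pass. SLC7A5 (LAT1), the importer of leucine and other large neutral amino acids, was 96.7, 89.6 and 92.1 FPKM in TNFSG, 115, 92.3 and 97.8 in TNF, 97.8, 82.1 and 90.0 in SG and 101, 88.4 and 92.4 in control. Its partner chain SLC3A2 (4F2hc) was 101, 99.6 and 104 FPKM in TNFSG, 134, 103 and 107 in TNF, 105, 97.3 and 105 in SG and 127, 103 and 108 in control. In both genes replicate 1 of TNF and of control stood highest, and the groups overlapped.

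SLC7A11 (xCT), which imports cystine for glutathione and needs SLC3A2, was low at 4.04, 4.62 and 3.93 FPKM in TNFSG, 4.05, 5.78 and 4.67 in TNF, 3.73, 4.46 and 4.35 in SG and 4.02, 5.58 and 5.36 in control. SLC7A1 (CAT1), the arginine and lysine importer, kept to 15.5 to 18.0 FPKM over the 12 libraries. A second locus named SLC7A1 averaged 11.4 FPKM and ranged from 3.02 to 16.3. Whether its reads came from the same transcript was not tested. Reads that SLC7A5 shares with its pseudogene copies cannot be told apart in these values.

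**Figure D3:**
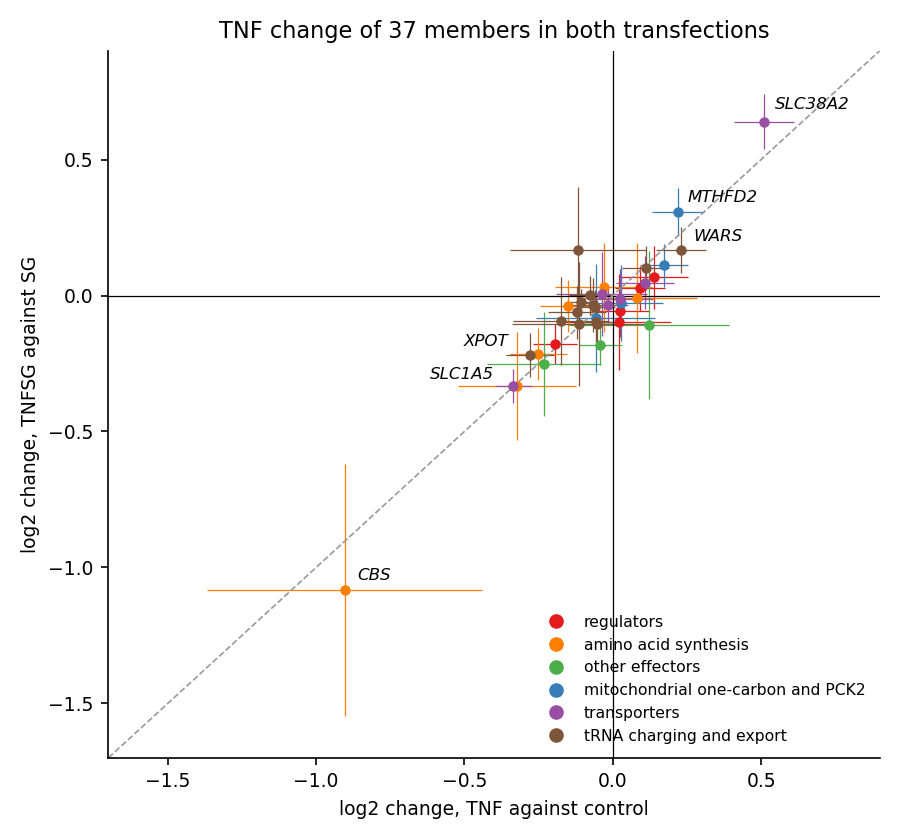
Log2 change with TNF in the mock transfection (TNF against control, horizontal) and in the lncRNA-directed transfection (TNFSG against SG, vertical) for 37 members, with standard errors as bars and the line of equal change dashed. SLC38A2 lies at 0.51 and 0.64, SLC1A5 at -0.34 and -0.33, and CBS, the widest in error, at -0.90 and -1.08.

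MTHFD2, the mitochondrial folate enzyme that supplies formate for purine synthesis, was the only member called for both treatments. It was 69.1, 78.0 and 68.0 FPKM in TNFSG, 82.6, 94.5 and 90.8 in TNF, 54.3, 62.3 and 56.7 in SG and 71.2, 82.5 and 76.1 in control. The TNF libraries were highest and the SG libraries lowest, and TNFSG and control overlapped. TNF raised it by 0.26 ± 0.06 log2 averaged over the transfections (adjusted p = 0.0458), and SG changed it by -0.36 ± 0.06 averaged over both conditions (adjusted p = 0.0323), a fall of the mean by 22.0%.

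In the single comparisons MTHFD2 did not pass: 0.22 in TNF against control, 0.31 in TNFSG against SG, -0.40 in SG against control and -0.31 in TNFSG against TNF, with adjusted p values between 0.165 and 0.38. In each of these 4 comparisons the 2 groups did not overlap. Its TNF call was lost without any 1 library other than TNF replicate 1 or SG replicate 2 (adjusted p up to 0.102), and its SG call without SG or TNFSG replicate 1 or 3, or replicate 2 or 3 of control or TNF (up to 0.0922).

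The other genes of the mitochondrial folate group and PCK2 did not pass. SHMT2, which makes glycine from serine ahead of MTHFD2, was 131, 119 and 133 FPKM in TNFSG, 123, 111 and 117 in TNF, 121, 108 and 127 in SG and 109.9, 101 and 101 in control. Control replicates 2 and 3 were the lowest of the 12 libraries, and the log2 change was 0.16 with SG (adjusted p = 0.246), opposite in sign to that of MTHFD2. ALDH1L2, the mitochondrial formyltetrahydrofolate dehydrogenase, was low at 3.59, 3.94 and 5.83 FPKM in TNFSG, 3.54, 3.07 and 3.79 in TNF, 3.41, 5.0 and 5.94 in SG and 3.68, 3.39 and 3.86 in control, with replicate 3 highest in each group. PCK2, the mitochondrial enzyme that makes phosphoenolpyruvate, ranged from 20.7 to 31.4 FPKM, and its averaged log2 changes were 0.00 with TNF and 0.15 with SG.

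ASNS, which makes asparagine and is the classical ATF4 target, was 74.1, 79.3 and 96.3 FPKM in TNFSG, 87.8, 66.4 and 86.9 in TNF, 72.8, 74.1 and 98.2 in SG and 90.2, 70.4 and 85.2 in control. The spread within each group exceeded any difference between group means. Its log2 change was 0.00 with TNF (interval -0.26 to 0.26) and 0.02 with SG (interval -0.24 to 0.28).

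The serine pathway gave no call. PHGDH, its first enzyme, was 58.2, 66.4 and 93.8 FPKM in TNFSG, 74.7, 56.2 and 69.6 in TNF, 61.1, 65.9 and 91.6 in SG and 70.8, 58.3 and 59.6 in control. The highest values were those of TNFSG replicate 3 and SG replicate 3. PSAT1, the next enzyme, was 20.0, 19.3 and 21.0 FPKM in TNFSG, 22.9, 21.2 and 26.8 in TNF, 23.5, 23.3 and 23.7 in SG and 29.1, 25.2 and 30.5 in control. Its 3 TNFSG libraries lay below every library of the other groups, with log2 changes of -0.23 for TNF (adjusted p = 0.105) and -0.24 for SG (adjusted p = 0.148). PSPH, the last enzyme, ranged from 9.09 to 12.1 FPKM and shares reads with partial copies.

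The transsulfuration pair, CBS and CTH, which make cysteine from homocysteine, had low or unsteady values. CBS was 911, 371 and 853 FPKM in TNFSG, 494, 605 and 1003 in TNF, 1794, 1067 and 1438 in SG and 1190, 763 and 2166 in control. Its log2 change with TNF was -0.99 (interval -1.73 to -0.26, adjusted p = 0.153). The genome of this build holds a near-identical copy of CBS, so its values are uncertain. CTH was 4.97, 4.53 and 4.37 FPKM in TNFSG, 5.70, 3.51 and 3.99 in TNF, 6.84, 5.39 and 6.05 in SG and 7.72, 4.82 and 4.82 in control, with a log2 change of -0.33 for TNF (adjusted p = 0.288).

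**Figure D4:**
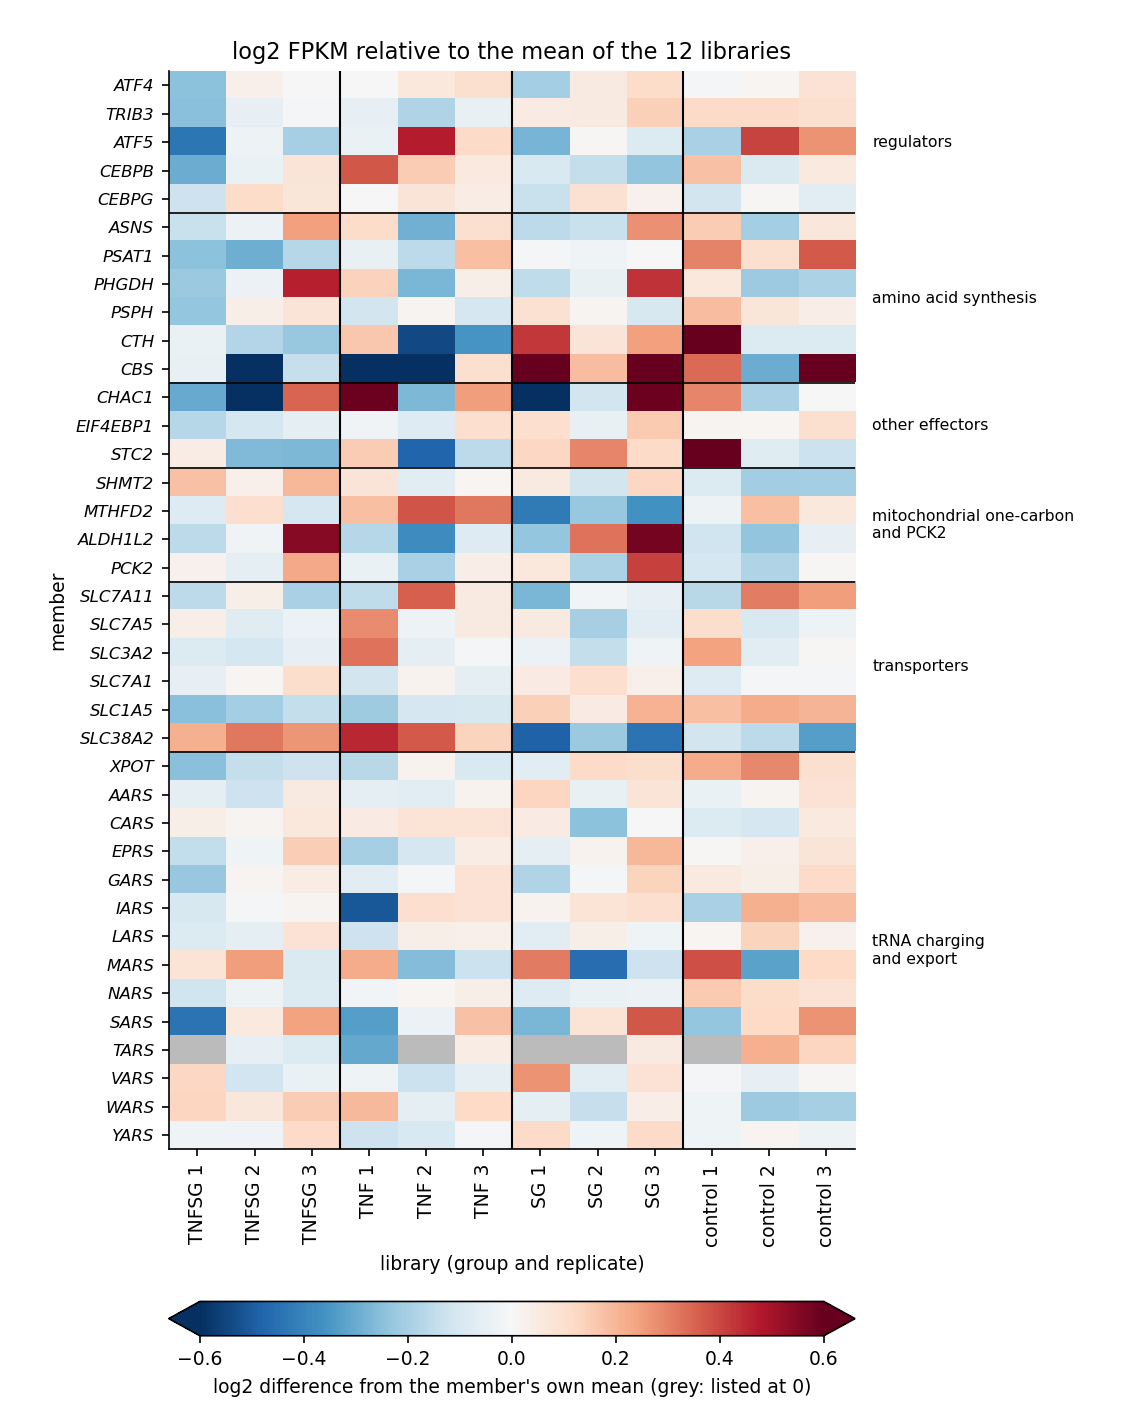
Log2 FPKM of the 38 members in each library relative to the member's own mean over the libraries where it was above 0, ordered by role (rows) and group (columns), with colours saturated at 0.6 and grey where a member was listed at 0. SLC38A2 and SLC1A5 follow the presence of TNF, and several rows, such as SARS and ATF5, vary with the replicate number inside each group.

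The aminoacyl-tRNA synthetases, which load each tRNA with its amino acid, gave no call. Of the 12 with usable values, limma called none in any of the 7 comparisons, and 1 (WARS with TNF averaged, NARS with SG averaged) had an unadjusted p under 0.05 in each averaged comparison. With TNF averaged, 3 had a positive and 9 a negative log2 change, with a median of -0.06, against -0.03 for all loci. With SG averaged, 7 were positive and 5 negative, with a median of 0.01, against 0.09 for all loci. For loci averaging 10 FPKM or more the medians were -0.04 with TNF averaged and 0.04 with SG averaged.

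WARS, the tryptophanyl synthetase, known as an interferon-induced gene, was 144, 138 and 146 FPKM in TNFSG, 150.4, 126 and 143 in TNF, 126, 119 and 135 in SG and 129, 113 and 115 in control. The TNFSG libraries lay above the SG libraries, while TNF and control overlapped at 1 library each. The averaged TNF change was 0.20 (interval 0.07 to 0.33, adjusted p = 0.112). NARS, the asparaginyl synthetase, was 94.4, 101 and 96.9 FPKM in TNFSG, 101, 103 and 105 in TNF, 97.3, 99.7 and 100.05 in SG and 115, 111 and 109 in control. All 6 SG and TNFSG libraries lay below all 6 TNF and control libraries. The change was small, -0.13 log2 (interval -0.21 to -0.05, adjusted p = 0.133), and it passed only after median-ratio scaling (adjusted p = 0.0212).

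YARS, the tyrosyl synthetase, was 129, 129.9 and 143 FPKM in TNFSG, 121, 124 and 131 in TNF, 143, 129 and 143 in SG and 129, 133 and 129 in control, with overlapping groups. By mean FPKM over the 12 libraries, SARS (182) and GARS (181) stood highest, followed by MARS (135), YARS (132), WARS (132), IARS (131) and EPRS (121). NARS (103) and VARS (94.3) came next, then AARS (73.3) and LARS (70.8), with CARS (33.8) lowest. Neighbours in this order overlapped in their ranges, except that CARS, at 28.5 to 35.8 FPKM, lay below every library of LARS, at 64.8 to 77.6, and that the ranges of VARS and AARS, at 85.9 to 113 and 67.1 to 80.1, were apart.

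**Figure D5:**
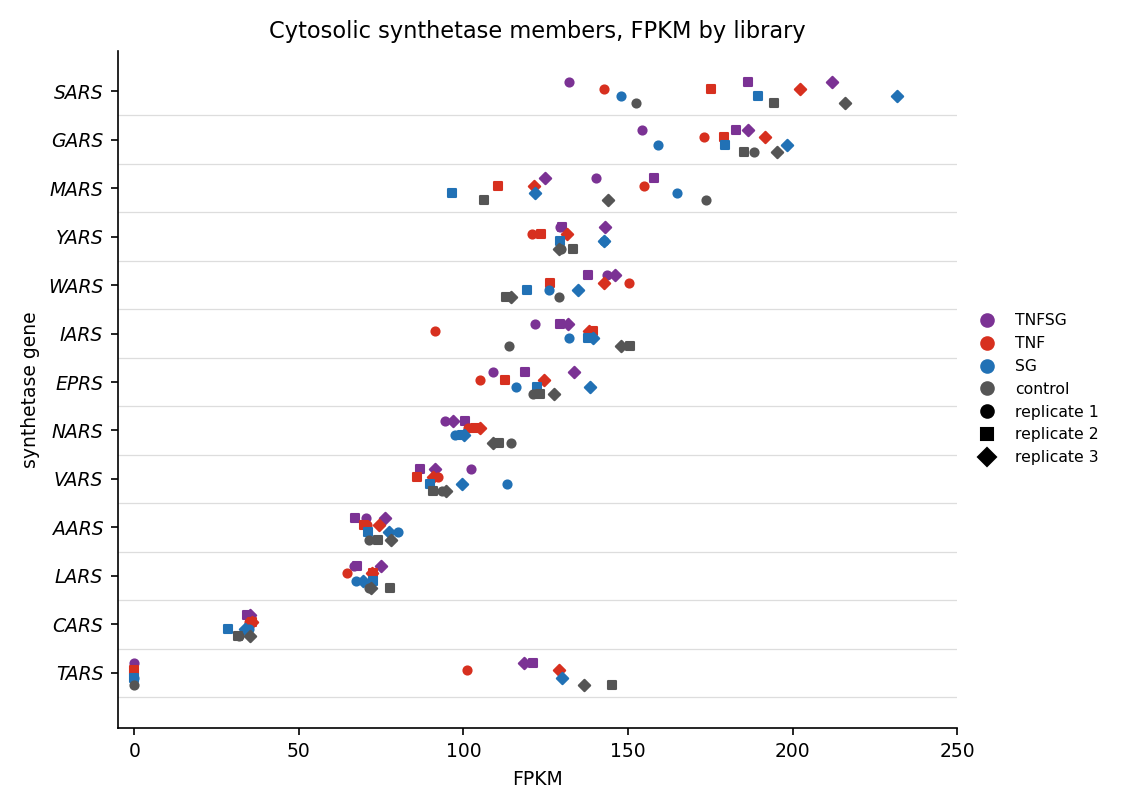
FPKM of the 13 synthetase members in each library, coloured by group and shaped by replicate, ordered by mean with TARS at the bottom. SARS and GARS lie highest and CARS lowest among the 12 with values in every library, the groups overlap in most rows, and TARS is listed at 0 in 5 of the 12 libraries.

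TARS, the threonyl synthetase, was listed at 0, 121 and 118 FPKM in TNFSG, 101, 0 and 129 in TNF, 0, 0 and 129.9 in SG and 0, 145 and 137 in control. It was thus at 0 in 5 libraries, spread over all 4 groups, and at 101 FPKM or more in the other 7. A value of exactly 0 beside such levels can be a failed estimate, and the table holds 1519 loci with at least 1 such 0, so no mean or change is given for TARS.

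XPOT, which carries mature tRNAs out of the nucleus, was 39.6, 42.8 and 43.3 FPKM in TNFSG and 45.0, 51.1 and 50.7 in SG, and 42.0, 47.8 and 44.3 in TNF and 55.1, 57.7 and 50.4 in control. The groups with and without TNF did not overlap inside either transfection. The averaged TNF change was -0.25 ± 0.06 log2 (adjusted p = 0.0412), a fall of the mean by 16.2%. The call was lost without any 1 library other than control replicate 3, TNF replicate 2 or SG replicate 1 (adjusted p up to 0.103), and after median-ratio scaling (0.0621).

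CHAC1, which degrades glutathione and is a sensitive marker of ATF4 activity, was barely expressed, at 2.16, 1.75 and 3.39 FPKM in TNFSG, 4.01, 2.21 and 3.17 in TNF, 1.76, 2.47 and 4.01 in SG and 3.27, 2.33 and 2.66 in control. The groups overlapped, and its 95% intervals were wide, -0.42 to 0.44 log2 for TNF and -0.59 to 0.28 for SG. EIF4EBP1, which restrains cap-dependent translation, was 106, 111 and 115 FPKM in TNFSG, 118, 113 and 128 in TNF, 128, 116 and 133 in SG and 121, 121 and 128 in control. The TNFSG libraries lay below the SG ones, but the log2 change of -0.18 did not pass (adjusted p = 0.362). STC2, a secreted glycoprotein induced by stress, stayed low at 2.92, 2.36 and 2.35 FPKM in TNFSG, 3.15, 2.04 and 2.54 in TNF, 3.09, 3.47 and 3.07 in SG and 4.43, 2.70 and 2.59 in control.

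The members were also read by the presence of the response core in the promoter. The 9 members with the core and usable values held no call in any comparison, and their averaged TNF changes lay between -0.13 and 0.11 log2. The 20 members without it held the 4 calls for TNF and the 1 call for SG, with TNF changes between -0.99 and 0.57. SLC38A2 is counted among these 20, though its known element lies in its first intron. The 8 members without a promoter entry are in neither group. With TNF averaged 4.38% of all loci were called, and 8.11% of those averaging 10 FPKM or more. With SG averaged these shares were 1.11% and 2.68%. The difference between the members with and without the core was not tested.

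In 14 of the 38 members the same replicate number was lowest in all 4 groups, against 11.4% of all loci tested and 19.3% of those averaging 10 FPKM or more. In 13 the same number was highest in all 4, against 10.9% and 16.3%. SARS, the seryl synthetase, was 132, 186 and 212 FPKM in TNFSG, 143, 175 and 202 in TNF, 148, 189.6 and 232 in SG and 153, 194 and 216 in control, always lowest in number 1 and highest in number 3. Its highest and lowest libraries within a group differed by up to 1.61-fold, more than any difference between its group means.

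Genes upstream of and beside the members were read from 4 further lists. Of 14 kinases and eIF2 factors, 2 rose with TNF averaged and none fell, against 4.38% of all loci called and 8.11% of those averaging 10 FPKM or more. PPP1R15A (GADD34), which recruits a phosphatase to eIF2 and closes the response, was 39.8, 40.8 and 42.8 FPKM in TNFSG and 27.6, 28.2 and 32.5 in SG, and 44.1, 36.6 and 39.1 in TNF and 29.4, 26.6 and 25.8 in control (log2 change 0.50, adjusted p = 0.00192). EIF2AK2 (PKR), the kinase that senses double-stranded RNA, was 18.1, 17.6 and 17.7 FPKM in TNFSG and 11.7, 12.7 and 11.4 in SG, and 14.9, 14.2 and 13.4 in TNF and 11.6, 10.7 and 9.70 in control (0.46, adjusted p = 0.00165). The kinases for missing amino acids, misfolded protein and haem shortage did not pass.

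Of 17 further ATF4 target genes found, 4 rose with TNF averaged and none fell, against 2.84% of all loci higher and 1.55% lower, with a median log2 change of -0.05 over the 17. SQSTM1 (p62), an autophagy receptor, changed most at 1.17 (adjusted p = 8.57e-06). DDIT4 and SESN2, which restrain mTORC1, changed by 1.06 and 0.98 (adjusted p = 0.00496 and 0.00108). GADD45A, a growth arrest gene, changed by 0.54 (adjusted p = 0.000248). All 4 have other known inducers besides ATF4. None of the 17 was called in an SG comparison.

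SESN2, which also senses leucine, was 45.0, 35.5 and 37.7 FPKM in TNFSG, 48.5, 36.3 and 37.3 in TNF, 21.4, 20.4 and 21.3 in SG and 23.8, 16.1 and 16.0 in control. DDIT4 was 196, 166 and 246 FPKM in TNFSG, 279, 172 and 261 in TNF, 96.6, 93.2 and 111 in SG and 139.6, 90.6 and 95.6 in control. In both genes every library with TNF lay above every library without it. Whether ATF4 had a part in these changes was not tested.

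Of 10 further cytosolic synthetases and their scaffold proteins, 1 fell with TNF averaged: EEF1E1 (AIMP3), a scaffold subunit of the multisynthetase complex, at -0.23 (adjusted p = 0.0242). Of 17 mitochondrial synthetases, 1 fell. Both counts lay near the share called among all loci (4.38%) or among those averaging 10 FPKM or more (8.11%). The 1 that fell was MARS2, the mitochondrial methionyl synthetase, which was 9.63, 8.89 and 9.09 FPKM in TNFSG and 15.4, 13.4 and 15.5 in SG, and 9.31, 9.48 and 10.9 in TNF and 16.5, 17.9 and 18.5 in control (-0.70, adjusted p = 0.000193). The cytosolic counterpart MARS was 140.3, 158 and 125 FPKM in TNFSG, 155, 111 and 121 in TNF, 165, 96.6 and 122 in SG and 174, 106 and 144 in control, without a call. Neither list held a call in an SG comparison, where at most 1.11% of all loci were called.

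The treatments were checked in the same libraries. The TNF targets ICAM1 and NFKBIA rose by 4.41 and 3.49 log2 (adjusted p = 8.84e-10 and 5.67e-09). No locus carries the name of the targeted RNA, lncRNA-PPTG1-1:1. The locus named MIR146A, which neighbours PTTG1, was 7.77, 4.51 and 4.03 FPKM in TNFSG, 28.1, 25.6 and 21.2 in TNF, 0, 0.0566 and 0.0630 in SG and 0.360, 0.569 and 0.159 in control. Whether it is the targeted RNA was not tested.

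The K562 markers were present, with GATA1, the erythroid master factor, at 103 to 137 FPKM, and the 8 symbols, held by 7 loci, summed to 2004 to 4905 FPKM in libraries with TNF and 2136 to 5106 in those without. By transfection they summed to 2004 to 4227 FPKM in TNFSG and SG libraries and 2100 to 5106 in TNF and control libraries, and 6 of the 7 loci had a negative log2 change with SG averaged (median -0.24, none called). The T cell markers CD3D and CD3E were at 10.9 to 44.7 and 0.139 to 2.11 FPKM and summed to 13.5 to 45.0 with TNF and 11.1 to 35.0 without. Both had a positive log2 change with SG averaged, 0.44 for CD3D and 0.63 for CD3E, without a call. The epithelial markers, nearly all of it EPCAM, summed to 49.5 to 65.9 FPKM with TNF and 57.2 to 64.5 without, and the endothelial marker PECAM1 was 26.5 to 51.4 with TNF and 15.9 to 47.4 without. Among the fibroblast markers COL1A1 was at 0.417 to 9.95 and DCN at 14.3 to 83.2 FPKM, while COL1A2 was 1098 FPKM in TNF replicate 1, 406 in TNFSG replicate 2, 127 in TNF replicate 2 and 6.39 or less elsewhere. The 3 fibroblast markers thus summed to 55.1 to 1178 FPKM with TNF and 21.3 to 56.3 without, and each of the 3 had a positive log2 change with TNF averaged, without a call. The part of these markers in the results for TNF and for SG was not tested. In bulk RNA, fewer cells of a type and less RNA per cell cannot be told apart. Depth relative to the mean of the libraries, estimated from the steps of low values, lay between 0.857 and 1.31, and the total depth is unknown.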

How the data were processed

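The 12 K562 libraries were sequenced in single reads of 50 bases, per the labels' protocols. Per the submitters' processing notes, Bowtie2 2.2.9, TopHat2 2.0.14 and Cufflinks were used with build hg38. The annotation release and any scaling between libraries are not stated in the sources at hand. The deposited values are FPKM per locus, made by the authors, with 1 column per library. Reads from overlapping or antisense genes cannot be separated in them.

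Loci that reached 1 FPKM in 3 or more libraries were tested on log2(FPKM + 1), which understates the change of low loci. A linear model of the 4 groups was fitted to the 12 libraries with limma 3.58.1 in R 4.3.3, with moderated variances that follow a trend on mean level. Tests were 2-sided, p values were adjusted after Benjamini and Hochberg over all loci, and the threshold was 0.05. The model was run on simulated data with independent normal noise. Those data held no effect of the replicate number, so that run says nothing about such an effect. Nothing states that replicates were separate cultures beyond their label as biological replicates, so p values measure the spread between these libraries.

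The members and lists were chosen with earlier results of these data known. Library values are given for every called member, for ATF4, TRIB3, CHAC1 and ASNS, and for the 3 members per role of lowest unadjusted p in each averaged effect. MARS and SARS were named after their values were seen. Sequences are from RefSeq (GRCh38.p14), where 8 members had no entry in the table used. Some cell type markers are not reported here and were left out of the marker sums. Depth per library is unknown, so no counting interval is given. Python 3.11.15, numpy 2.4.6, pandas 2.3.3 and matplotlib 3.10.9 were used.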

Additional observations from a re-analysis of the deposited data

How the results depend on the processing

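Correlation gave little sign that the replicate numbers pair the libraries. Over 9824 loci, 1 of 18 same-numbered pairs correlated above 0.1 (range -0.04 to 0.11). A library's best match in another group bore its own number in 15 of 36 cases. Yet the same number was lowest in all 4 groups for 19.3% of these loci and highest for 16.3%. The sample titles also give same-numbered libraries a shared letter (A, B or C), each letter holding 1 library of every group. What the letter stands for is not stated. The values do not settle whether same-numbered libraries were handled together. The main fit made no use of the number, so any pairing went unused there. With the number as a replicate block, loci called came to 831 in TNF against control, 843 in TNFSG against SG and 938 with SG averaged. In the main fit they were 478, 540 and 365. Members called came to 1 in SG against control (MTHFD2), 3 in TNFSG against SG (adding MTHFD2), 7 with TNF averaged (adding PSAT1, WARS and CBS) and 2 with SG averaged (adding ATF5).

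No called member changed sign under the alternatives tried, while 64 alternative values of members named without a call did. Fits on only the groups compared called 201 loci in TNF against control (against 478), 323 in TNFSG against SG (540), 12 in SG against control (56) and 2 in TNFSG against TNF (42). Those fits called 0 members in TNF against control and 1 in TNFSG against SG. Without the trend, 18 loci were called in TNFSG against TNF, 16 in SG against control and 158 with SG averaged, with members at 0 in TNF against control, 1 in TNFSG against SG, 2 with TNF averaged and 0 with SG averaged. A filter at 5 FPKM gave 97 loci in TNFSG against TNF, 115 in SG against control and 701 (against 365) with SG averaged, and brought TRIB3 to an adjusted p of 0.047 with TNF averaged. Median-ratio scaling gave 78 loci in TNFSG against TNF and 2 members with SG averaged (adding NARS). No filter, or quantile normalization, left 1 member (SLC1A5) in TNF against control. Zeros as missing, chosen after seeing the data, gave 36 loci in SG against control and 0 in the interaction, where a pseudocount of 0.1 gave 12, against 3.

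With each library left out in turn, loci called ranged from 294 to 435 in TNF against control, 3 to 25 in TNFSG against TNF, 299 to 598 in TNFSG against SG, 10 to 49 in SG against control, 134 to 363 with SG averaged and 1 to 6 in the interaction. Members called ranged from 0 to 2 in TNF against control and in TNFSG against SG, 2 to 3 with TNF averaged and 0 to 1 with SG averaged. Over the planned and added alternatives, SLC38A2 and SLC1A5 kept their calls with TNF averaged, with adjusted p values up to 0.00561 and 0.0197. MTHFD2 and XPOT did not: without the trend both lost it (0.122 each), MTHFD2 also with no filter (0.053) and with zeros as missing (0.051), and XPOT also under median-ratio scaling (0.0621). The SG call of MTHFD2 was lost without the trend (0.0922). Quantile normalization moved the median of all loci to -0.03 in SG against control, against 0.08, to -0.03 in TNFSG against TNF, against 0.08, and to -0.02 with SG averaged, against 0.09, so changes of that size have no fixed sign. Total depth is unknown, so its part in the wide intervals of low members such as CHAC1 was not tested.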
